A study of Mus musculus with 2 samples.

Results

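The aryl hydrocarbon receptor pathway was followed through 6 listed genes, found by name in the count tables: Ahr, Ahrr, Arnt, Tiparp, Cyp1b1 and Cyp1a1, all 6 of them among the 31053 genes measured. Single cells of ear epidermis were profiled in 2 libraries, sorted as live CD45+ EpCAM- MHC-II- cells. Mice were wild-type FVB/NJ females of 8 weeks, without any transgene or deletion, and how many went into a library is not given in the labels. The isotype library was made 7 d after intradermal isotype control antibody, and the other library 7 d after intradermal anti-Skint1 antibody, directed at the keratinocyte protein that dendritic epidermal T cells (DETCs) recognise. With 1 library per treatment there was no replicate, and effects of treatment cannot be told apart from those of the library.

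Values are UMIs (unique molecular identifiers, each marking 1 captured mRNA molecule) per 1000000 UMIs of a group of cells (CPM), with 95% intervals that cover counting error only. Cells were barcodes in which 500 to 2500 genes and no more than 12% mitochondrial UMIs were counted, 4242 in the isotype library with a median of 4046.5 UMIs and 5961 in the anti-Skint1 library with a median of 3604 UMIs; 5 barcodes occurred among the cells of both. DETCs were cells with at least 3 UMIs each of Trdc and of the CD3 chains and none of Trac, Cd4, Cd8a or Cd8b1, 3544 and 4945 cells in the isotype and anti-Skint1 library. Markers outside that rule were found in these cells: Trdv4, the DETC δ chain, stood at 978 and 789 CPM, and Tcrg-V5, the γ chain, at 59.0 and 62.6 CPM. A Trdv4 UMI was present in 3133 and 4146 of the DETCs. The αβ T and ILC rules below exclude Trdv4, so that it gives no comparison between the classes. αβ T cells (Trac, no Trdv4) numbered 197 and 213, and their Cd6, an αβ T cell surface receptor, stood at 149 and 110 CPM against 0.546 and 0.107 CPM in DETCs. Cd6 alone is given of the listed αβ T markers outside the class rules (Trbc1, Trbc2, Cd5 and Cd6), and it does not stand for the others. Of the αβ T cells, 39 and 57 also carried Trdc, which DETCs express. The ILC rule (at least 3 UMIs of Il7r, Rora and Gata3, at most 2 of CD3, no Trdv4) took 82 and 139 cells, and its label held at most in part. Of the listed ILC markers outside the rule (Id2, Kit, Il1rl1, Ncr1, Areg and Arg1), only Kit is given here, at 83.6 and 111 CPM. It does not stand for the others. The keratins summed to 483 and 3852 CPM and the Langerhans and myeloid genes to 1076 and 1733 CPM, although the sort removed EpCAM+ and MHC-II+ cells. ILC below means the cells of that rule. A further 428 and 678 cells met no class rule.

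AHR is a ligand-activated transcription factor that waits in the cytoplasm in a complex with HSP90 chaperones. After binding ligands such as tryptophan metabolites or dioxins, it enters the nucleus, pairs with ARNT and binds the xenobiotic response element. Its classical targets include the oxidases CYP1A1 and CYP1B1, the ADP-ribosyltransferase TIPARP and the repressor AHRR, of which the last pair act back on the receptor. In skin the receptor is known for keeping up the numbers of DETCs.

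The sequences just upstream of the target genes were searched for the core of the response element. Only 250 bases before each start were covered, so that cores further upstream would not be seen. The RefSeq promoter table for GRCm38.p6 held 5 of the 6 members, all but Ahr. The 250 bases before the annotated start are printed 5′ to 3′ on the gene's strand for the 4 target genes, with GCGTG, or CACGC where the core lies on the other strand, in capitals. The printed windows lie at chr13:74292332-74292581 (Ahrr, minus strand), chr3:65528197-65528446 (Tiparp, plus strand), chr9:57697363-57697612 (Cyp1a1, plus strand) and chr17:79715062-79715311 (Cyp1b1, minus strand).
Ahrr: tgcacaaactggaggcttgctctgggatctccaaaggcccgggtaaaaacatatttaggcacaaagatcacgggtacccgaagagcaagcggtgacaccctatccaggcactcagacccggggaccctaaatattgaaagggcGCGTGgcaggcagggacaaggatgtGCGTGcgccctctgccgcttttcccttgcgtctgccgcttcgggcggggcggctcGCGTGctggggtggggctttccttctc
Tiparp: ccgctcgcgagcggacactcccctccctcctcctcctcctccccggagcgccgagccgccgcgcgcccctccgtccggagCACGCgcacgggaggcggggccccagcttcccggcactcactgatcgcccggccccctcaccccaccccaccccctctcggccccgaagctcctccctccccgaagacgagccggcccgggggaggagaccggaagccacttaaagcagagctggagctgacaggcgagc
Cyp1a1: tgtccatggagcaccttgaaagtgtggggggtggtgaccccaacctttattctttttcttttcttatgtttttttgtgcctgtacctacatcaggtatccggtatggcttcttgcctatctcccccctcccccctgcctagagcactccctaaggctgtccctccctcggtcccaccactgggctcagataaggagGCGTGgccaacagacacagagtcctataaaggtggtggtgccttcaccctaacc
Cyp1b1: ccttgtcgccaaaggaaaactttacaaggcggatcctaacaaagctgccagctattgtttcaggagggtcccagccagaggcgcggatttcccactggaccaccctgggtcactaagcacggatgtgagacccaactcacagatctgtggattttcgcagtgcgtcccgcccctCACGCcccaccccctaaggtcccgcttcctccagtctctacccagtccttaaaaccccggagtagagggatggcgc
Ahrr held 3 cores, 107, 82 and 27 bases before its start, and the nearest of them was part of the longer TNGCGTG. Tiparp held 1 core 170 bases before its start, Cyp1a1 1 at 54 bases and Cyp1b1 1 at 76 bases, and the promoter of Arnt also held 1, at 29 bases. Of 32851 promoters of this length, searched on both strands, 28.2% held at least 1 core, 8.63% at least 2 and 2.77% at least 3, and 4.1% held TNGCGTG. RefSeq starts can differ from those of the GENCODE annotation that gives the gene positions: the Cyp1a1 window lies inside the gene span given below, and the Tiparp window reaches past the start of its span. A match is a description of the letters in this window and not of a bound site.

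Ahr, the receptor itself, was highest in DETCs in both libraries. The gene (ENSMUSG00000019256, chr12:35497974-35535038, minus strand, GRCm38) stood at 226 CPM (218 to 234, 3309 UMIs) in isotype DETCs and 222 CPM (215 to 229, 4155 UMIs) in anti-Skint1 DETCs. In αβ T cells it stood at 102 CPM (81.4 to 127, 82 UMIs) and 90.9 CPM (71.6 to 114, 76 UMIs). In ILCs it stood at 65.3 CPM (42.3 to 96.4, 25 UMIs) and 77.3 CPM (57.6 to 102, 51 UMIs). The intervals of DETCs therefore did not overlap those of αβ T cells or ILCs in either library, whereas αβ T cells and ILCs, neighbours in this order, had overlapping intervals in both. The log2 ratio of DETCs over αβ T cells was 1.14 (0.82 to 1.47) and 1.29 (0.96 to 1.64), and that over ILCs was 1.79 (1.23 to 2.42) and 1.52 (1.12 to 1.95).

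Smaller lymphocyte groups had wider errors. Dermal γδ T cells, called by CD3 with at least 2 UMIs of genes such as Il17a and Blk and without Trac or Trdv4 (51 and 70 cells), had Ahr at 119 CPM in each library (79.6 to 171 and 84.4 to 162). Of them, 28 and 39 cells also met the DETC rule, so that the groups share cells. Among αβ T cells, Ahr stood at 145 CPM (16 UMIs, 25 cells) and 42.8 CPM (3 UMIs, 17 cells) in CD8 T cells, at 147 and 112 CPM in Treg cells (9 and 4 UMIs) and at 62.8 and 78.4 CPM in conventional CD4 T cells (10 and 14 UMIs). The intervals of these 3 subsets overlapped one another in both libraries, so no order among them could be given at this depth.

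**Figure D1:**
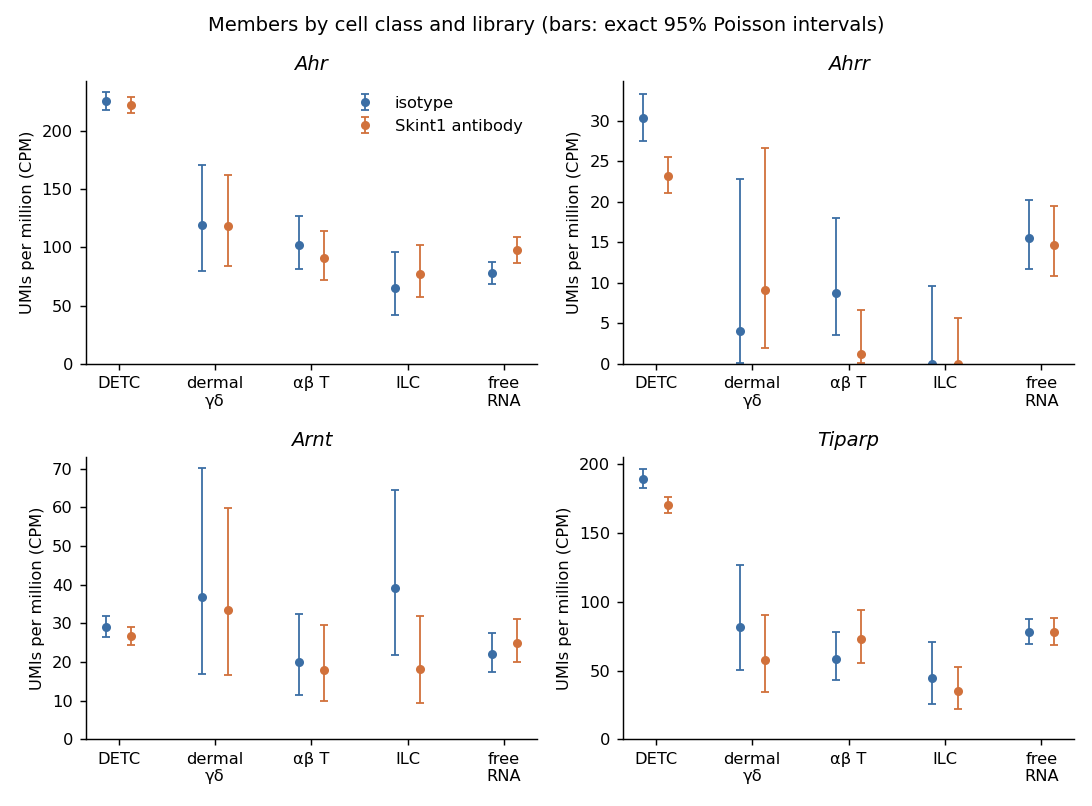
Level of Ahr, Ahrr, Arnt and Tiparp (vertical axis, CPM of the group) in DETCs, dermal γδ T cells, αβ T cells, ILCs and free RNA, with 1 point per library and bars for exact 95% Poisson intervals. Ahr in DETCs sits at 226 and 222 CPM, above 102 and 90.9 CPM in αβ T cells, Tiparp shows the same order, Ahrr is at 0 in ILCs, and Arnt overlaps between the classes.

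Free RNA, read from barcodes with 1 to 100 UMIs, bears on these levels. There Ahr stood at 77.6 and 97.4 CPM, near its level in αβ T cells and ILCs. Keratins, taken as wholly free, put the free share at no more than 1.79% and 2.14% of the UMIs of DETCs and 2.27% and 1.89% of those of αβ T cells. In ILCs the same bound was 51.6% in the isotype library and above the whole in the anti-Skint1 library, so that it sets no useful limit there, and the part of free RNA in the level of Ahr in ILCs was not tested. In the 71 and 116 ILCs with fewer than 5 UMIs each of keratins and of Cd74, H2-Aa and Cd207, Ahr stood at 66.2 and 85.1 CPM and the log2 ratio of DETCs over these cells was 1.77 and 1.38.

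αβ T cells that also carried Trdc had a higher level of Ahr than a stricter group with at least 2 Trac UMIs and no Trdc. Ahr stood at 139 CPM (87.8 to 208) and 151 CPM (106 to 209) in αβ T cells with Trdc. It stood at 75.9 CPM (51.6 to 108, 102 cells) and 47.0 CPM (25.7 to 78.9, 77 cells) in the stricter αβ T cells, and the intervals overlapped in the isotype but not in the anti-Skint1 library. The log2 ratio of DETCs over the stricter group was 1.57 (1.06 to 2.13) and 2.24 (1.49 to 3.11). Whether droplets holding a pair of cells contribute to the αβ T cells with Trdc was not tested.

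Tiparp, the ADP-ribosyltransferase that feeds back on the receptor, had the same order of classes. The gene (ENSMUSG00000034640, chr3:65528410-65555518, plus strand) stood at 189 CPM (182 to 197, 2777 UMIs) and 170 CPM (165 to 176, 3186 UMIs) in DETCs of the isotype and anti-Skint1 library. In αβ T cells it stood at 58.7 CPM (47 UMIs) and 72.9 CPM (61 UMIs), and in ILCs at 44.4 CPM (17 UMIs) and 34.9 CPM (23 UMIs). DETCs lay above both other classes in both libraries, with log2 ratios of 1.69 (1.28 to 2.14) and 1.22 (0.86 to 1.61) over αβ T cells and of 2.09 (1.41 to 2.87) and 2.29 (1.70 to 2.95) over ILCs. Dermal γδ T cells had Tiparp at 82.0 and 57.8 CPM, 1.21 and 1.56 below DETCs on the log2 scale. Free RNA held Tiparp at 77.9 and 77.8 CPM, above its point values in αβ T cells and ILCs. For αβ T cells, with 47 and 61 UMIs, the difference did not exceed counting error in either library.

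Ahrr, the repressor that competes with AHR for ARNT, had its highest level among the 3 classes in DETCs. The gene (ENSMUSG00000021575, chr13:74211118-74292331, minus strand), whose 3 response element cores are printed above, had 444 UMIs (30.3 CPM, 27.5 to 33.2) in isotype DETCs and 434 UMIs (23.2 CPM, 21.1 to 25.5) in anti-Skint1 DETCs. In αβ T cells it had 7 UMIs (8.74 CPM, 3.51 to 18.0) and 1 UMI (1.20 CPM, 0.0303 to 6.66), and in ILCs 0. It also had 0 UMIs in CD8, Treg and conventional CD4 T cells, where a level as in DETCs was not excluded by the exact intervals of CD8 (to 33.4 and 52.7 CPM) and Treg cells (to 60.3 and 104 CPM). With the 0 of ILCs set to a floor of 3 counts per library (7.83 and 4.55 CPM), Ahrr was at least 3.87-fold and 5.10-fold higher in DETCs than in ILCs. The exact interval of that 0 reached 9.63 and 5.59 CPM. Over αβ T cells the log2 ratio was 1.79 (0.74 to 3.12) under isotype and, from the single UMI of the anti-Skint1 library, 4.28 (1.79 to 9.59). Of the 7 UMIs in isotype αβ T cells, 4 lay in the cells that also carried Trdc.

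Arnt, the partner that AHR shares with other factors of the bHLH-PAS family, had overlapping levels in the 3 classes. The gene (ENSMUSG00000015522, chr3:95434388-95497240, plus strand) stood at 29.1 CPM (26.4 to 32.0) and 26.6 CPM (24.3 to 29.1) in DETCs, at 20.0 and 17.9 CPM in αβ T cells (16 and 15 UMIs) and at 39.2 and 18.2 CPM in ILCs (15 and 12 UMIs). Every interval of αβ T cells and ILCs overlapped that of DETCs, and free RNA lay at 22.0 and 25.0 CPM. The log2 ratio of DETCs over αβ T cells was 0.54 (-0.17 to 1.36) and 0.57 (-0.17 to 1.42), so that a ratio as large as that of Ahr lay inside both intervals and could not be told from none at this depth. Over the stricter αβ T cells described above it was 1.25 (0.02 to 2.88) and 0.66 (-0.57 to 2.29), from 5 Arnt UMIs in each library.

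Cyp1a1 and Cyp1b1, the target oxidases used most often to read receptor activity, were all but absent. Over all 10203 cells they gave 8 UMIs together out of 40516954. Cyp1b1 (ENSMUSG00000024087, chr17:79701537-79715061, minus strand) had 1 UMI in isotype DETCs and 5 in anti-Skint1 DETCs, 0.0682 and 0.267 CPM, at or below its 0.282 and 0.611 CPM in free RNA (1 and 2 UMIs). Cyp1a1 (ENSMUSG00000032315, chr9:57687928-57703824, plus strand) had 1 UMI in isotype DETCs and 0 in anti-Skint1 DETCs, which at the floor of 3 counts allows up to 0.160 CPM (0.197 CPM by the exact interval), and 1 UMI in an anti-Skint1 cell of no class. Both had 0 UMIs in αβ T cells and ILCs, where the smaller totals allow up to 7.83 CPM at that floor (9.63 CPM by the exact interval). No difference between groups could be read from such counts.

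Set against all genes, the class differences of Ahr and Tiparp were large but not rare. Of the members with at least 20 CPM on average over DETCs and αβ T cells (3 of 6), 2 were higher in DETCs by a log2 ratio of 1 or more in each library, Ahr and Tiparp, as were 11.8% of 5515 genes under isotype and 10.8% of 5350 under anti-Skint1. No member was lower by as much, against 6.65% and 5.35% of genes. Over ILCs the same 2 of 3 members were higher, against 15.2% and 15.4% of genes, and 0 were lower, against 8.76% and 7.58%. Ahr lay at percentile 90.0 and 92.9 of all genes in the ratio over αβ T cells, and Tiparp at 94.7 and 92.3.

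**Figure D2:**
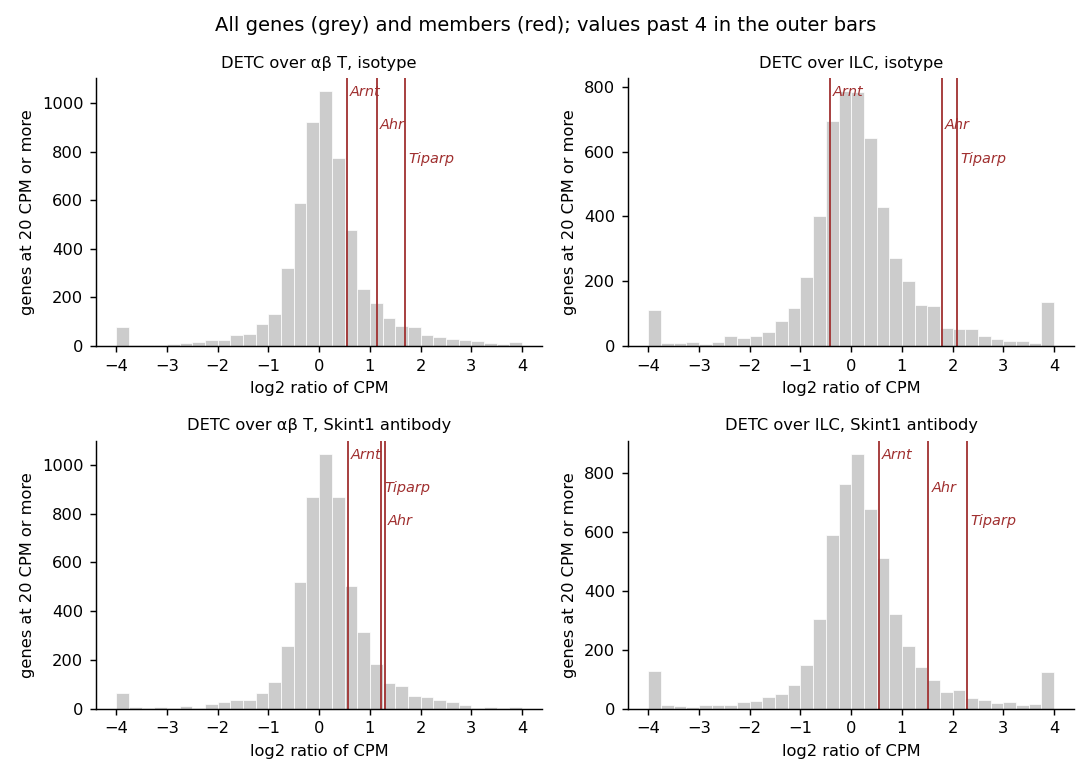
Number of genes at 20 CPM or more (vertical axis) by the log2 ratio of DETCs over αβ T cells and over ILCs (horizontal axis) in each library, with the members as red lines. Ahr and Tiparp lie past 1 in all 4 panels, in the upper tail of the genes, and Arnt lies between -0.43 and 0.57.

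Measured as shares of cells, Ahr and Tiparp were again highest in DETCs. Each cell was thinned to 2000 UMIs, which left out 134 and 202 shallower DETCs. An Ahr UMI was then found in 34.5% (32.9 to 36.2) of 3410 isotype DETCs and 33.3% (32.0 to 34.7) of 4743 anti-Skint1 DETCs, against 15.8% and 14.3% of αβ T cells and 14.3% and 14.0% of ILCs, and no order between the last pair of classes can be read from these. Tiparp was found in 28.2% and 25.3% of DETCs, 10.2% or fewer of αβ T cells and 6.49% or fewer of ILCs. The groups compared had median depths of 4027.5 and 3577 UMIs (DETCs), 3766 and 3581 UMIs (αβ T cells) and 4570 and 4334 UMIs (ILCs), and without thinning Ahr was found in 52.7% and 49.99% of DETCs. Ahrr was found in 5.31% and 4.51% of DETCs and in 0 of 77 and 0 of 136 ILCs, which at a floor of 3 counts allows up to 3.90% and 2.21% of such cells with a UMI (4.68% and 2.68% by the exact interval). Arnt was found in 5.84% and 5.42% of DETCs, 3.68% and 1.53% of αβ T cells and 5.19% and 2.94% of ILCs, with overlapping intervals except that αβ T cells of the anti-Skint1 library (0.317 to 4.41) lay below their DETCs (4.79 to 6.10).

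Among DETCs, Ahr was spread over many cells and not held by a few. After thinning, 25.2% and 24.2% of DETCs had 1 Ahr UMI, 6.57% and 6.92% had 2, and 2.82% and 2.23% had 3 or more. The variance of Ahr counts over DETCs was 1.31 and 1.28 times their mean, and that of Tiparp 1.37 and 1.39 times. For Ahrr it was 1.09 and 1.05 times and for Arnt 1.06 and 1.03 times, beside 1 for Poisson counts. The mean count was 0.479 and 0.457 for Ahr but 0.0572 and 0.0474 for Ahrr. This ratio lies near 1 for any gene with so low a mean, so that it does not rank the spread of these genes. No DETC had more than 9 Ahr or 10 Tiparp UMIs before thinning. At least 1 UMI of Ahr, Ahrr or Tiparp was found in 56.5% and 52.6% of thinned DETCs, and UMIs of all 3 in 15 and 19 cells.

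Tiparp was lower in DETCs that held an Ahr UMI, in both libraries. In thinned DETCs with an Ahr UMI, Tiparp stood at 169 and 156 CPM, and in those without, at 208 and 181 CPM, a log2 ratio of -0.30 (-0.47 to -0.13) and -0.22 (-0.38 to -0.07). Split by a Tiparp UMI instead, Ahr stood at 194 CPM with and 257 CPM without it under isotype, a log2 ratio of -0.41 (-0.58 to -0.24). Under anti-Skint1 it stood at 217 and 232 CPM, where the log2 ratio of -0.09 (-0.24 to 0.05) spanned 0. Ahrr showed no such difference in the isotype library, with 28.0 against 28.9 CPM and a log2 ratio of -0.04 (-0.50 to 0.39). In the anti-Skint1 library it stood at 29.4 CPM in DETCs with an Ahr UMI and 20.9 CPM in those without, a log2 ratio of 0.50 (0.10 to 0.89), and the difference between the libraries was not tested.

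The receptor and its target Tiparp ran in opposite directions along the immediate early range of DETCs. Immediate early genes (Fos, Fosb, Jun, Junb, Egr1, Ier2, Nr4a1, Dusp1 and Zfp36) encode AP-1 factors and other products of a fast response to stimulation. From these same libraries, the study reported a DETC cluster enriched in Fos, Junb and Jund. It reported another cluster, which appeared more quiescent, as enriched in transcripts that include Ahr. The course of Ahr below thus repeats in part a contrast already reported. DETCs were ranked by the share of UMIs from these 9 genes, none of them a member, and divided into 3 equal ranges, with mean shares of 0.161%, 0.753% and 1.69% for isotype and 0.150%, 0.718% and 1.76% for anti-Skint1. These are ranges of a continuous score and not cell types.

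Tiparp stood at 59.2 CPM (52.5 to 66.4) in the lowest range of isotype DETCs, 202 CPM in the middle and 309 CPM (293 to 325) in the highest. In the anti-Skint1 library it stood at 56.0 CPM (50.3 to 62.1), 166 CPM and 296 CPM (283 to 310). The ranges did not overlap in either library. Highest over lowest, the log2 ratio was 2.38 (2.20 to 2.57) and 2.40 (2.24 to 2.57), or 2.59 and 2.60 relative to the median gene, which shifted by -0.20 and -0.19. Tiparp lay at percentile 99.0 and 98.7 of all genes, and was the only one of 4 members at 20 CPM or more that was higher by 1 or more, as were 5.57% and 5.86% of genes.

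Ahr stood at 283 CPM (268 to 298), 209 CPM and 185 CPM (173 to 198) in the lowest, middle and highest range of isotype DETCs. In the anti-Skint1 library it stood at 274 CPM (262 to 287), 219 CPM and 170 CPM (160 to 181). It was thus lowest where Tiparp was highest, with a log2 ratio of -0.61 (-0.73 to -0.49) and -0.69 (-0.80 to -0.58), or -0.41 and -0.50 relative to the median gene. These placed Ahr at percentile 7.95 and 4.05 of all genes. No member was lower by 1 or more, against 0.559% and 0.384% of genes.

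Ahrr had the sign of Ahr over this range, and Arnt the opposite sign. Ahrr stood at 39.9 CPM in the lowest and 24.8 CPM in the highest range for isotype DETCs, and 27.4 and 19.7 CPM for anti-Skint1 DETCs, log2 ratios of -0.68 and -0.47, or -0.48 and -0.28 relative to the median gene. Arnt stood at 24.9 and 32.8 CPM, and at 25.5 and 28.4 CPM, log2 ratios of 0.40 (0.05 to 0.75) and 0.16 (-0.16 to 0.47), or 0.60 and 0.35 relative to the median gene. Ahrr, a receptor target with 3 cores in the 250 bases searched, thus differed in sign from Tiparp. By shares of thinned DETCs, Tiparp was found in 10.7% and 10.5% of the lowest range and in 44.9% and 39.8% of the highest, and Ahr in 41.6% and 40.2% of the lowest and in 28.5% and 26.9% of the highest. Ahrr was found in 6.28% and 4.88% of the lowest and in 4.92% and 4.03% of the highest, with overlapping intervals in both libraries. When thinned to 1000 UMIs, its shares were 3.47% and 2.13% of the lowest and 2.03% and 2.13% of the highest.

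Finer steps showed the same course. Over 10 equal steps, Tiparp stood at 36.4 CPM in the lowest and 334 CPM in the highest step of isotype DETCs, and at 46.2 and 343 CPM in the anti-Skint1 library. Ahr was at 272 CPM in the lowest step, 297 CPM in the next and 170 CPM in the highest of isotype DETCs, and at 298 and 162 CPM in the lowest and highest of the anti-Skint1 library.

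**Figure D3:**
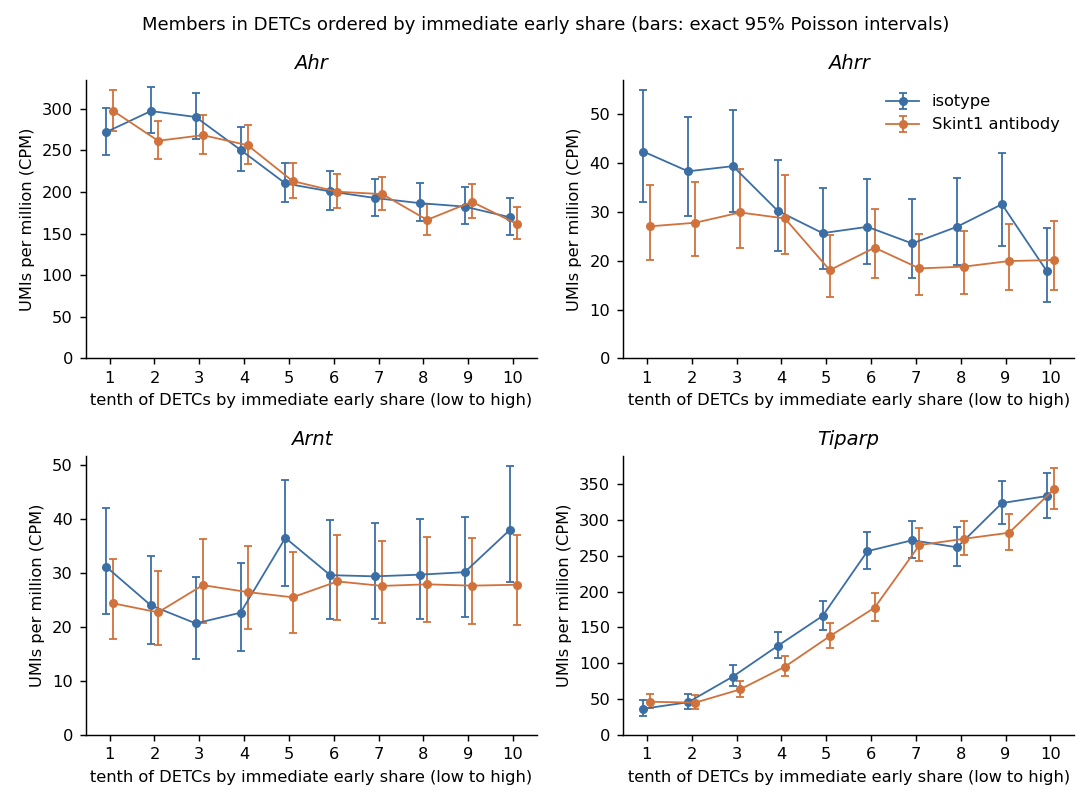
Level of Ahr, Ahrr, Arnt and Tiparp (vertical axis, CPM) in 10 equal groups of DETCs ordered by the share of UMIs from 9 immediate early genes (horizontal axis, low to high), 1 line per library, bars for exact 95% Poisson intervals. Tiparp climbs from 36.4 to 334 CPM and from 46.2 to 343 CPM, while Ahr ends at 170 and 162 CPM.

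The immediate early share also differed between the classes, and its part in the class difference of Tiparp was not tested. It was 0.860% of UMIs in DETCs of each library, 0.468% and 0.594% in αβ T cells and 0.255% and 0.384% in ILCs. The classes were therefore also compared within the limits of the 3 DETC ranges, which held 115, 64 and 18 isotype and 92, 87 and 34 anti-Skint1 αβ T cells.

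Within the lowest range, Tiparp was at 59.2 CPM in DETCs and 31.8 CPM (15 UMIs) in αβ T cells under isotype, with a log2 ratio of 0.90 (0.15 to 1.75). In the anti-Skint1 library it was at 56.0 and 47.6 CPM (17 UMIs), and the log2 ratio of 0.23 (-0.47 to 1.03) spanned 0. In the middle range the log2 ratios were 1.61 and 1.28, and in the highest 0.58 (-0.15 to 1.42) and 0.92 (0.28 to 1.63). Tiparp was higher in the highest than in the lowest range of αβ T cells too, at 207 and 157 CPM (15 and 20 UMIs).

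Ahr kept its class difference in the lowest range, where it stood at 283 and 274 CPM in DETCs and at 104 and 109 CPM (49 and 39 UMIs) in αβ T cells, log2 ratios of 1.45 (1.04 to 1.89) and 1.33 (0.87 to 1.83). In the middle range the log2 ratios were 1.15 and 1.57. In the highest range they were 0.58 (-0.35 to 1.71) and 0.98 (0.13 to 1.98), with 9 and 11 Ahr UMIs in αβ T cells. Over ILCs in the lowest range (68 and 101 cells), the log2 ratio was 1.94 and 1.66 for Ahr and 0.75 (-0.11 to 1.77) and 1.23 (0.37 to 2.24) for Tiparp.

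**Figure D4:**
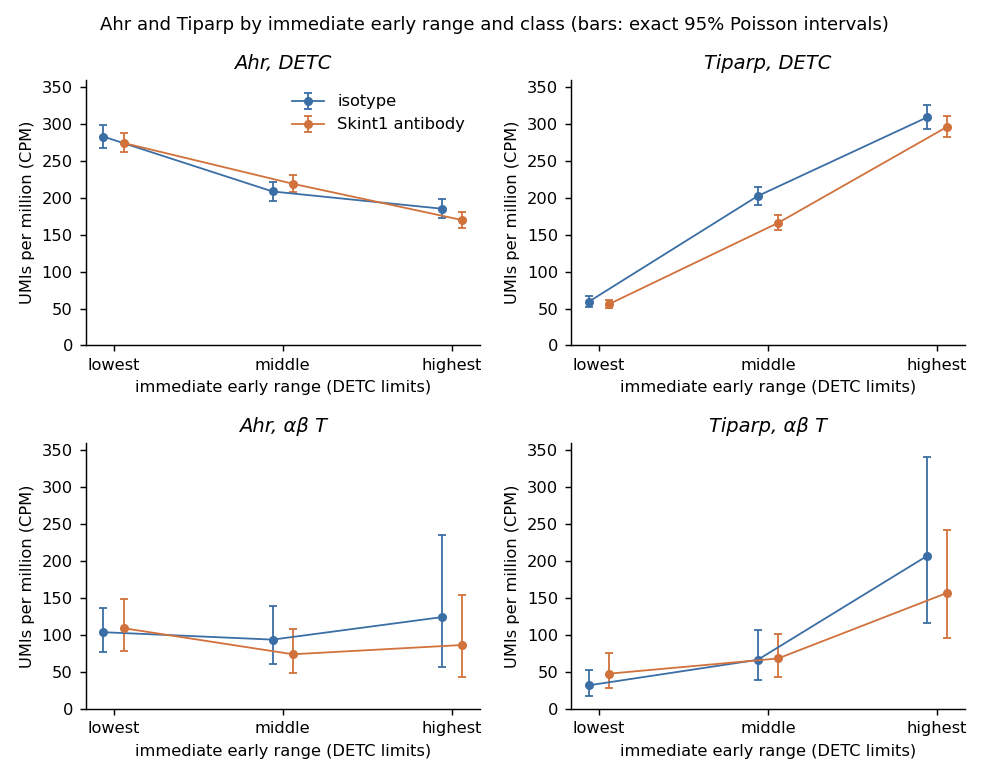
Level of Ahr (left) and Tiparp (right) in CPM (vertical axis) within the same 3 ranges of immediate early share (horizontal axis), for DETCs (top) and αβ T cells (bottom), 1 line per library, bars for exact 95% Poisson intervals. In the lowest range Tiparp is at 59.2 and 56.0 CPM in DETCs and 31.8 and 47.6 CPM in αβ T cells, whereas Ahr is at 283 and 274 CPM against 104 and 109 CPM.

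Between the treatments, Ahr in DETCs did not differ beyond counting error. The 226 CPM of the isotype and 222 CPM of the anti-Skint1 library give a log2 ratio of -0.02 (-0.09 to 0.04), beside a median of -0.03 over 5483 genes. This interval leaves room for a difference of at most 0.09 on the log2 scale as far as counting goes, while the spread between mice or libraries is unknown. In αβ T cells the log2 ratio was -0.17 and in ILCs 0.24, both with intervals that span 0. The share of thinned DETCs with an Ahr UMI differed by -1.23 percentage points (-3.32 to 0.85).

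Ahrr had the largest treatment ratio of the members measured at 20 CPM or more in DETCs. It was lower in the anti-Skint1 library, 23.2 against 30.3 CPM, with a log2 ratio of -0.38 (-0.58 to -0.19), below all but 0.948% of genes. Of the 4 members tested, Ahrr was the only one past 0.25, as were 4.25% of genes in the same direction, and 0 members were higher by that much, against 1.22% of genes. The sign was the same in each immediate early range, at -0.54, -0.23 and -0.33 from lowest to highest. By shares of DETCs thinned to 2000 UMIs, the lowest range differed by -1.40 points (-3.24 to 0.33) and the highest by -0.89 (-2.54 to 0.66). At 1000 UMIs these were -1.34 (-2.69 to -0.13) and 0.09 (-1.05 to 1.14), and at 3000 UMIs -3.96 (-6.45 to -1.56) and -1.28 (-3.38 to 0.74). DETCs not cycling (-0.37) were 3431 of 3544 and 4832 of 4945 DETCs, so their ratio is no separate result. In free RNA Ahrr stood at 15.5 and 14.7 CPM. By thinned shares, 5.31% and 4.51% of DETCs, the difference was -0.80 percentage points (-1.77 to 0.15), an interval that spans 0. It did not span 0 at the other depths, with -0.67 points (-1.36 to -0.01) at 1000 UMIs and -2.05 points (-3.35 to -0.79) at 3000 UMIs. In αβ T cells the 7 and 1 UMIs gave a log2 ratio of -2.87 (-8.36 to 0.09).

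Tiparp and Arnt were closer to the other genes. Tiparp stood at 189 and 170 CPM, a log2 ratio of -0.15 (-0.23 to -0.08), and its share of thinned DETCs differed by -2.89 percentage points (-4.85 to -0.95). Its ratio by immediate early range was -0.08, -0.29 and -0.06, while the immediate early share of all DETC UMIs was 0.860% in each library. In αβ T cells Tiparp was at 58.7 and 72.9 CPM, a log2 ratio of 0.31 with an interval that spans 0. Arnt stood at 29.1 and 26.6 CPM in DETCs, a log2 ratio of -0.13 (-0.32 to 0.06).

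**Figure D5:**
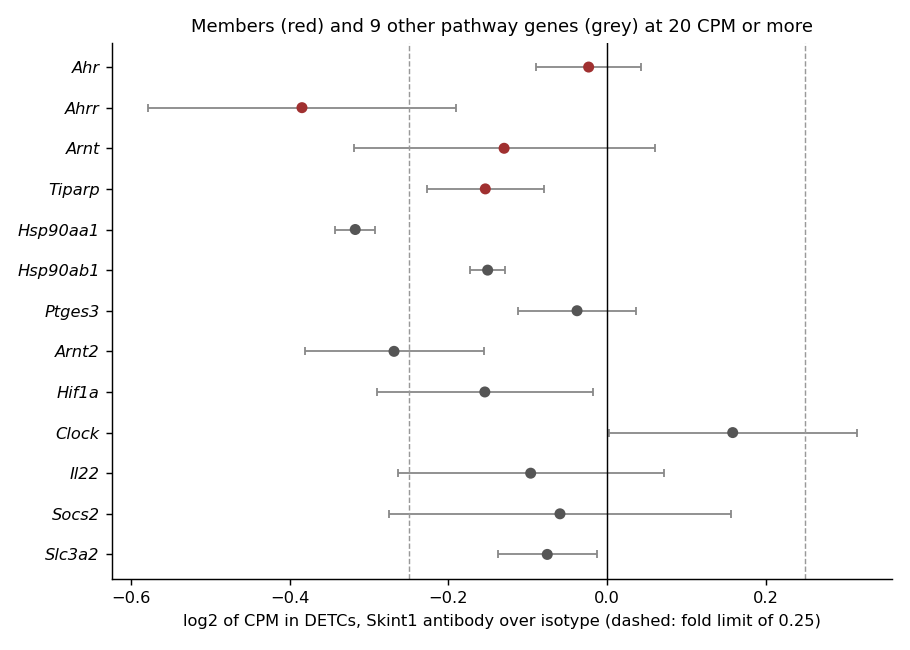
Log2 ratio of CPM in DETCs, Skint1 antibody over isotype (horizontal axis), for the 4 members (red) and 9 of the 10 other pathway genes (grey) at 20 CPM or more. Bars are exact 95% counting intervals, and dashed lines lie at 0.25 either way. Ahrr at -0.38, Hsp90aa1 at -0.32 and Arnt2 at -0.27 lie past the lower line, and Ahr lies at -0.02.

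DETCs in cycle, those with at least 2 UMIs of 10 cell cycle genes (113 in each library), had less Ahr and less Tiparp than the other DETCs. Ahr stood at 180 CPM in cycling and 228 CPM in other DETCs under isotype, and at 168 and 224 CPM in the anti-Skint1 library, log2 ratios of -0.34 (-0.63 to -0.06) and -0.42 (-0.72 to -0.13). Tiparp stood at 142 and 191 CPM, and at 102 and 173 CPM, log2 ratios of -0.43 (-0.76 to -0.12) and -0.75 (-1.14 to -0.39). The cycling DETCs were deeper, with a median of 5182 UMIs against 4001 UMIs in the isotype library. Their immediate early share was also lower, at 0.639% against 0.869% under isotype and 0.582% against 0.869% under anti-Skint1. Its part in these ratios was not tested. Over the range of heat shock genes, by contrast, Ahr had log2 ratios of -0.09 and -0.01 between the highest and the lowest of 3 ranges, Tiparp of 0.08 and 0.19 and Ahrr of -0.30 and -0.34.

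Other genes of the pathway were taken as 31 genes in 5 lists. Of these, 10 reached 20 CPM in the treatment comparison of DETCs, where 0 were higher and 2 lower by 0.25, against 1.22% and 4.25% of all genes, and the median log2 ratio was -0.09 against -0.03 over all genes. Over αβ T cells, 12 and 11 were tested, 2 and 1 were higher in DETCs by 1 or more (11.8% and 10.8% of all genes) and 5 and 4 were lower (6.65% and 5.35%). Over ILCs, 11 and 12 were tested, 3 and 2 were higher (15.2% and 15.4% of all genes) and 1 and 2 lower (8.76% and 7.58%). Of the lower genes, Il17a and Arntl were tested only through their level in αβ T cells, and Kit and Il4i1 only through that in ILCs, so that their direction was fixed by the filter. The same holds for Arnt2 among the higher genes over anti-Skint1 ILCs. Along the immediate early range 10 were tested in each library, 2 and 3 were higher in the highest range (5.57% and 5.86% of all genes), and 0 were lower (0.559% and 0.384%). Il22, and Socs2 in the anti-Skint1 library, were tested there only through their level in the highest range.

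Among the chaperones of the cytoplasmic receptor, Hsp90aa1 stood apart. It was at 1673 CPM in isotype and 1343 CPM in anti-Skint1 DETCs, a log2 ratio of -0.32 (-0.34 to -0.29). It was higher in DETCs than in αβ T cells by 1.34 and 0.98 and than in ILCs by 2.13 and 1.68 on the log2 scale, and it was higher in the highest than in the lowest immediate early range by 1.31 and 1.34. Hsp90aa1 is also a heat shock gene, and the heat shock share of DETC UMIs was 0.456% and 0.326%. Hsp90ab1, the constitutive HSP90, was at 2181 and 1965 CPM, a log2 ratio of -0.15. The HSP90 co-chaperone Ptges3 was at 183 and 178 CPM, with a treatment interval that spans 0.

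Among the factors of the same family, Arnt2, a paralog of Arnt, was the one higher in DETCs. It stood at 85.1 and 70.6 CPM in DETCs, 33.7 and 28.7 CPM in αβ T cells and 28.7 and 13.6 CPM in ILCs, log2 ratios of 1.34 and 1.30, and of 1.57 and 2.37. Hif1a, the hypoxia factor that also pairs with ARNT, had the opposite order, with 56.7 and 50.9 CPM in DETCs and 156 and 128 CPM in αβ T cells, log2 ratios of -1.46 and -1.33. The circadian factor Arntl was at 7.16 CPM in isotype DETCs and 35.0 CPM in isotype αβ T cells, and its partner Clock at 39.1 and 43.6 CPM in DETCs.

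The other xenobiotic enzymes were low too, and 0 of 6 (Cyp1a2, Nqo1, Aldh3a1, Ugt1a6a, Ugt1a7c and Gsta1) reached 20 CPM in any comparison. Nqo1, a quinone reductase, had 9 and 13 UMIs in DETCs, and Cyp1a2 had 0 in both libraries.

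Of 8 lymphocyte genes linked to the receptor, Il22 and Socs2 passed 20 CPM in DETCs as well as in αβ T cells, and both were lower in DETCs by 1 or more, against 6.65% and 5.35% of all genes. Il22, a cytokine that acts on keratinocytes, stood at 36.6 and 34.3 CPM in DETCs and 142 and 135 CPM in αβ T cells, log2 ratios of -1.96 and -1.98. Within DETCs it was at 5.96 and 4.69 CPM in the lowest and 58.7 and 59.1 CPM in the highest immediate early range, log2 ratios of 3.30 (2.75 to 3.91) and 3.66 (3.12 to 4.24), in the direction of Tiparp and not of Ahr. Socs2, a suppressor of cytokine signalling, was at 22.2 and 21.3 CPM in DETCs and 62.4 and 70.5 CPM in αβ T cells, and Il17a at 10.98 and 6.31 CPM against 64.9 and 126 CPM. Kit, the stem cell factor receptor, was at 15.4 and 8.55 CPM in DETCs and 83.6 and 111 CPM in ILCs.

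Genes of ligand supply were low in DETCs apart from Slc3a2, a subunit of a transporter that brings in tryptophan. Slc3a2 stood at 259 and 245 CPM, and was higher in the highest immediate early range by 0.68 and 0.73 on the log2 scale. Its partner subunit Slc7a5 was at 11.9 and 8.71 CPM. The tryptophan dioxygenase Ido1 had 0 UMIs in DETCs of both libraries, and Il4i1, an amino acid oxidase, was at 4.77 and 3.10 CPM in DETCs and at 10.4 CPM (4 UMIs) and 65.2 CPM in ILCs, and in those of the anti-Skint1 library the Langerhans and myeloid genes summed to 1733 CPM.

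The genes most like each member were sought over 8 points, the groups of 4 cell types with at least 20 cells in each of the 2 libraries (DETCs, conventional CD4 T cells, ILCs and dermal γδ T cells), among 5347 genes. By Pearson's r of log2(CPM + 1), Ahr was most like Arhgap5 (0.989), Strn4 (0.987) and Zmat4 (0.987), and Tiparp most like Dlst (0.987), St3gal4 (0.9798) and Rasl11b (0.979). Ahrr was most like Zc3h13 (0.993), Mta3 (0.992) and Nrgn (0.992), and Arnt most like Kdm5a (0.993), Lsm1 (0.978) and Miip (0.975). Such values are common over so few points, which share libraries and cells: 240 genes had r over 0.9 with Ahr and 116 with Tiparp. With log2(CPM + 10), 0 of the 3 genes for Ahr and 0 for Ahrr recurred, and 2 of 3 for Arnt and for Tiparp.

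Some UMIs of the members could belong to overlapping genes, since the sources used here do not state how strand was treated. The annotation places the lincRNA Gm48236 opposite Ahr, the pseudogene 4931440P22Rik opposite Tiparp, and the processed pseudogene Gm42672 on the strand of Arnt. Ahrr, Cyp1a1 and Cyp1b1 overlapped no other annotated gene.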

How the data were processed

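The authors deposited raw UMI counts per gene and barcode, made with CellRanger 3.0.2 per the file headers (GRCm38, mm10), with every barcode kept. Totals were 27272211 UMIs in the isotype and 32450957 in the anti-Skint1 library. Cells had 500 to 2500 genes and at most 12% mitochondrial UMIs. UMIs were summed per class and library and divided by the class total, with pandas 2.3.3, scipy 1.17.1 and numpy 2.4.6 under Python 3.11.15, and plotted with matplotlib 3.10.9. Levels have exact Poisson, ratios exact conditional binomial, shares Clopper-Pearson and differences of shares Newcombe 95% intervals. The method was checked on simulated data. With 1 library per treatment no test between samples was run; the study's test over cells was not repeated. A gene counted as tested at a mean of 20 CPM or more over the groups compared, and as higher or lower past a log2 ratio of 0.25 between treatments or 1 elsewhere.

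The 6 members, 31 pathway genes in 5 lists, and for each of 4 members the 3 genes of highest Pearson r over 8 points are the genes named. Members, lists and class rules were chosen with earlier results of these data known, and the difference in Ahr between groups of DETCs was among those results. Cells of the αβ T and ILC rules overlapped (9 and 14 cells). Doublets were limited by the class rules and the upper limit on genes, and Scrublet (scanpy 1.11.5) was used as an alternative. Gene positions came from GENCODE vM21 (GRCm38). The dermal markers Trgv4 and Trgv6 were not analysed here. No column was left unmapped. Results of 2 pathway genes are not reported here; the counts over the lists include them.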

Additional observations from a re-analysis of the deposited data

Results flagged for a closer look

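Ahr and Tiparp were also found in cells outside the comparisons, above their free RNA levels of 77.6 to 97.4 CPM. In cells of no class Ahr stood at 157 CPM in the isotype and 158 CPM in the anti-Skint1 library, and in barcodes with more than 2500 genes at 161 and 135 CPM. Tiparp stood at 127 and 142 CPM in cells of no class and at 96.8 and 98.9 CPM in barcodes with more than 2500 genes.

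Some log2 ratios had opposite signs in groups under the same contrast, and none of these differences was tested, since each rests on 1 library per group. Between treatments, Ahr was at -0.023 in DETCs and 0.24 in ILCs, and Tiparp at -0.15 in DETCs and 0.31 in αβ T cells. Between cycling and other DETCs, Ahrr was at 0.15 in the isotype and -0.21 in the anti-Skint1 library, and Arnt at 0.13 and -0.19. Arnt was at -0.43 and 0.55 for DETCs over ILCs, and at -0.19 and 0.075 between the highest and lowest heat shock range.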

How the results depend on the processing

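Of 373 log2 ratios of Ahr, Ahrr, Arnt and Tiparp under alternatives, 366 kept the main direction, including 130 of 130 class ratios and 48 of 48 immediate early ratios of Ahr and Tiparp; 340 stayed inside the counting interval of the main value and 32 moved out of it. Of the 7 with another direction, 6 belonged to ratios of Ahr and Arnt whose main interval spans 0, and 1 did not, Ahrr in DETCs over αβ T cells of the isotype library within the highest immediate early range, at -0.74 from 3 αβ T cell UMIs. Under anti-Skint1 that ratio of Ahrr was 1.33 in the same range, and under isotype 3.63 with the strict αβ T rule. Comparisons within immediate early ranges, leaving out cells of 2 rules, shared barcodes or ILCs with keratin UMIs, were added after seeing the data. Ratios of Ahr in DETCs over αβ T cells were 1.57 and 2.24 with the strict αβ T rule, 0.58 in the highest immediate early range (isotype) and 1.64 at no more than 5% mitochondrial UMIs (anti-Skint1). Over ILCs of the isotype library, Ahr was at 2.48 under that mitochondrial limit, 3.15 after free RNA was subtracted and 0.73 in the highest immediate early range. Tiparp over ILCs was at 4.33 and 3.39 with the strict ILC rule (1 and 4 UMIs) and 5.49 after free RNA was subtracted (isotype). The treatment ratio of Ahr in the highest immediate early range was -0.12. Along the immediate early range, Ahr was at -0.41 and -0.50 and Tiparp at 2.59 and 2.60 relative to the median gene, and Tiparp at 2.76 under the 5% limit (anti-Skint1). Their causes were not tested. At a floor of 50 CPM fewer genes were tested, and 21 were higher and 103 lower between treatments (67 and 233 at 20 CPM). For the isotype library, 328 and 147 were then past the fold over αβ T cells (650 and 367), 411 and 198 over ILCs (841 and 486) and 192 and 5 along the immediate early range (309 and 31). For the anti-Skint1 library these were 268 and 127 (579 and 286), 395 and 180 (838 and 411) and 195 and 8 (321 and 21). Free RNA could not be subtracted from anti-Skint1 ILCs, whose keratins exceeded those of free RNA. No paired analysis was possible because each treatment had 1 library. Depth limits Ahrr, Cyp1a1 and Cyp1b1 outside DETCs, and the 82 and 139 ILCs.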
